A study of Mus musculus with 5 samples.

Results

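The cells described here are 211 control neurons of the mouse spiral ganglion in which RNA of Ttn, the gene of the giant muscle protein titin, was detected. They were chosen from 1070 control neurons, and 1954 neurons were measured in all. Levels are UMIs (unique molecular identifiers, 1 per captured RNA molecule) per 10000 UMIs of a cell. A member had Dupd1 under 1, which sets aside type II-like neurons, Lypd1 under 3, which sets aside type Ic-like neurons, and Calb2 under 150, which sets aside type Ia-like neurons. The 395 control neurons that met these 3 conditions form the type Ib gate, and the 211 with Ttn at 0.5 or more are the members. The other control neurons were 184 Ttn-low cells of the same gate, 242 Calb2-high cells, 314 Lypd1-high cells and 119 cells of the type II gate.

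All animals were 30 to 33 days old, and neurons were sorted for a tdTomato reporter from cochleae of both sexes. Per the labels, the 2 control samples were bhlhb5-Cre/+; Ai14/+, so that the reporter marks cells with a history of this Cre. The 3 CKO samples carried the same 2 alleles and Runx1F/F, a floxed gene for the transcription factor Runx1 that was removed before birth.

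Type I spiral ganglion neurons carry the sound signal from inner hair cells to the brain, and type II neurons contact outer hair cells. Type I neurons are sorted into molecular types Ia, Ib and Ic. Calretinin (Calb2) is highest in type Ia, calbindin (Calb1) marks many type Ib neurons, and Lypd1 and the transcription factor Pou4f1 mark type Ic. Titin is known as the molecular spring of the sarcomere.

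Cells could be tied to a genotype but not to 1 of the samples. Each genotype was therefore a single pool with no replicate, and no test was made. Intervals in the text are exact 95% intervals that cover counting error only. Barcodes restart their alphabetical order 4 times along the table, which leaves 5 stretches of columns. Stretches 2 and 5 hold control cells and stretches 1, 3 and 4 hold CKO cells. No source used here ties a stretch to a sample, but values are given for each because they differed. Control stretch 2 held 482 cells with a median of 33694 UMIs, and control stretch 5 held 588 cells with a median of 44242.5. CKO stretch 4 stood apart from the other CKO stretches, with 12.1% of its cells Calb2-high and 35.7% Lypd1-high. The Calb2-high share was 47.0% in stretch 1 and 53.2% in stretch 3, and 10.8% in control stretch 2. The Lypd1-high share was 13.5% in stretch 1, 7.53% in stretch 3 and 38.4% in control stretch 2. Stretch 4 thus lay near a control stretch, and whether its CKO label holds for all its cells could not be settled from the files. CKO values are pooled as labelled, with each stretch or the value without stretch 4 beside the main ones.

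The 5 genes given as marks of these cells are Ttn at chr2:76703980-76982547 on the minus strand, Calb1 at chr4:15881264-15908064 on the plus strand, Sema3d at chr5:12383385-12588948 on the plus strand, Sema3e at chr5:14025276-14256689 on the plus strand and Btbd9 at chr17:30215524-30576488 on the minus strand, in mm10 coordinates. Each was counted over the whole gene. RefSeq promoter windows matched 3 of these 5 genes, and Calb1 and Btbd9 had no entry in the table. The 250 bases before the start of Ttn and of Sema3e are shown because these are the gene that defines the cells and the semaphorin whose level went with it. Capitals mark TGTGG or its reverse complement CCACA, the core of the known Runx binding motif, searched on both strands.
Ttn, GRCm38.p6, chr2:76982548-76982797, minus strand: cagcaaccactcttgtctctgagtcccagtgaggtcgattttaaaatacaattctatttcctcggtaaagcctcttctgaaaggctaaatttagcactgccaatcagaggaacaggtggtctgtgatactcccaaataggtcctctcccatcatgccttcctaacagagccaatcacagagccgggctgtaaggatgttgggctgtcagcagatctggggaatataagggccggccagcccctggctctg
Sema3e, GRCm38.p6, chr5:14025026-14025275, plus strand: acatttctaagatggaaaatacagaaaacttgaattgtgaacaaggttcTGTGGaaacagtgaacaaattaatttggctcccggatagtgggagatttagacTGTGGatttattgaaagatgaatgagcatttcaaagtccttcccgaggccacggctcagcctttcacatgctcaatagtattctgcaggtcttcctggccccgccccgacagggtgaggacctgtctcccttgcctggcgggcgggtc
The Sema3e window held 2 matches, which begin 201 and 148 bases before the start, and the Ttn and Sema3d windows held 0. Of all 32851 windows of this length, 49.3% held at least 1 match and 16.2% held 2 or more. A match describes the letters and is not a binding site.

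Ttn was a low-level transcript in these neurons. Among the 211 members, 6 had 1 Ttn UMI, 22 had 2, 71 had 3 to 5, 66 had 6 to 10 and 46 had 11 or more. The member levels ran from 0.511 to 10.6, with a median of 1.62. The 3 members nearest to the threshold had 0.511, 0.529 and 0.533, and the 3 Ttn-low cells nearest to it had 0.499, 0.489 and 0.489. The threshold therefore falls within a run of close values, and 62 of the 211 members had a level under 1. Of the 184 Ttn-low cells, 131 had no Ttn UMI and 53 had at least 1. At the other edges, the highest Calb2 among members was 141, and the lowest Calb2 among the 9 Calb2-high cells with Ttn at 0.5 or more was 167. The highest member Lypd1 was 2.51, and the lowest among 31 such Lypd1-high cells was 3.11. The highest member Dupd1 was 0.452, and the lowest among 6 such cells of the type II gate was 3.25.

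The conditions of the type Ib gate do not use Ttn, but the members were chosen with earlier results of these data known. The share of its cells with Ttn at 0.5 or more is therefore set beside that of the other gates only as a description. It was 53.4% (48.4 to 58.4) in the type Ib gate, 9.87% in the Lypd1-high gate, 5.04% in the type II gate and 3.72% in the Calb2-high gate. The share differed widely between the control stretches. In stretch 2, 136 of 173 type Ib-gate cells were members (78.6%, 71.7 to 84.5), and in stretch 5, 75 of 222 were (33.8%, 27.6 to 40.4). In the Lypd1-high gate the shares were 15.7% in stretch 2 and 1.55% in stretch 5. Members made up 28.2% of all cells of stretch 2 and 12.8% of those of stretch 5, and 19.7% (17.4 to 22.2) of the pool. The members' median depth was 35856 UMIs and that of the Ttn-low cells 40910.5, and in stretch 2 they were 34260 and 33489.

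**Figure D1:**
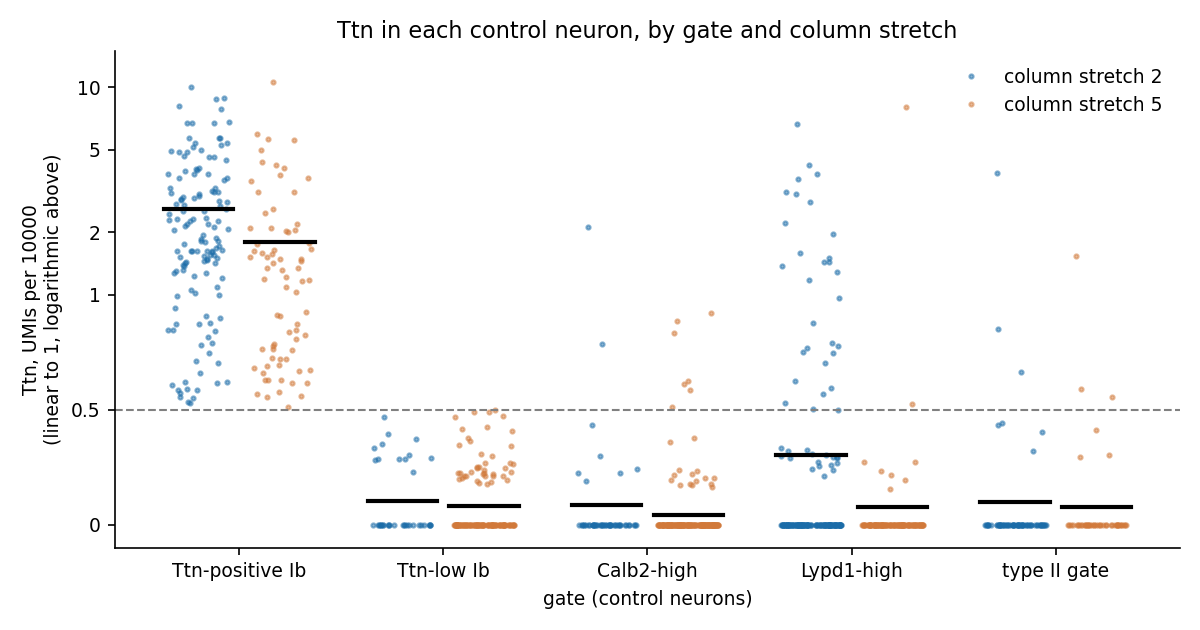
Ttn level of every control neuron in UMIs per 10000, by gate and column stretch, on an axis that is linear to 1 and logarithmic above; black bars are means and the dashed line is the threshold of 0.5. Members lie above the line by their definition, and Lypd1-high cells above it come from stretch 2 in 29 of 31 cases.

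The other marks of the cells were present, and only some set the members apart. Calb1 averaged 1.21 in members, 1.41 in Ttn-low cells, 0.283 in Calb2-high cells, 0.0894 in Lypd1-high cells and 0.00467 in the type II gate. It was seen in 160 of 211 members (75.8%, 69.5 to 81.4). After each cell was thinned to 10000 UMIs it was seen in 58.8% of members, 53.8% of Ttn-low cells and 0 of 119 cells of the type II gate. A count of 0 there allows a share of cells with a UMI of up to 2.52% by 3 counts and 3.05% by the exact interval, which is no limit on cells that express the gene. Calb1 thus marked the gate as a whole, with no higher level in members than in Ttn-low cells of either stretch. Sema3e, a secreted guidance protein, averaged 3.39 and 2.75 in members of stretches 2 and 5. In Ttn-low cells it averaged 2.19 and 2.29, in Calb2-high cells 2.13 and 1.69, and in Lypd1-high cells 2.0 and 1.6, so members were highest in each stretch. Sema3d, a second secreted semaphorin, averaged 0.530 and 0.372 in members and 0.430 and 0.159 in Ttn-low cells. After thinning, a Sema3d UMI was seen in 39.8% (33.2 to 46.8) of members, 14.7% (9.90 to 20.6) of Ttn-low cells, 13.6% of Calb2-high cells and 15.3% of Lypd1-high cells. Sema3d was higher in stretch 2 than in stretch 5 in each of these gates, and most members came from stretch 2. Btbd9, which codes for a BTB-domain protein, averaged 14.6 in members, 12.2 in Ttn-low cells and 15.1 in Lypd1-high cells, against 1.52 in Calb2-high cells. It therefore separated members from Calb2-high neurons and not from Lypd1-high ones.

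Runx1 averaged 1.76 in members, 1.69 in Ttn-low cells and 1.84 in Lypd1-high cells. It averaged 0.223 in Calb2-high cells, and 0.00414 and 0.00753 in the type II gate of stretches 2 and 5. Markers of other types were not all low in members. Grm8, a glutamate receptor of type Ic neurons, was seen after thinning in 2.37% of them and in 56.4% of Lypd1-high cells. By the same measure Pou4f1 was seen in 15.6% of members, 68.2% of Lypd1-high cells and 0.413% of Calb2-high cells. B3gat1, from the type Ia list, was seen in 35.1% of members, 85.1% of Calb2-high cells and 5.73% of Lypd1-high cells. Prph, the type II marker peripherin, was seen in 0 of 211 members (with a UMI, up to 1.42% by 3 counts and 1.73% by the exact interval) and in 49.6% of type II-gate cells after thinning. In Ttn-low cells the shares after thinning were 1.09% for Grm8, 9.78% for Pou4f1, 51.1% for B3gat1 and 0.543% for Prph. These levels fit the label type Ib-like for the gate as a whole. Pou4f1 and B3gat1 lay between the Lypd1-high and Calb2-high gates in members and in Ttn-low cells alike. The threshold on Ttn is better described as Ttn-positive than as Ttn-high.

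**Figure D2:**
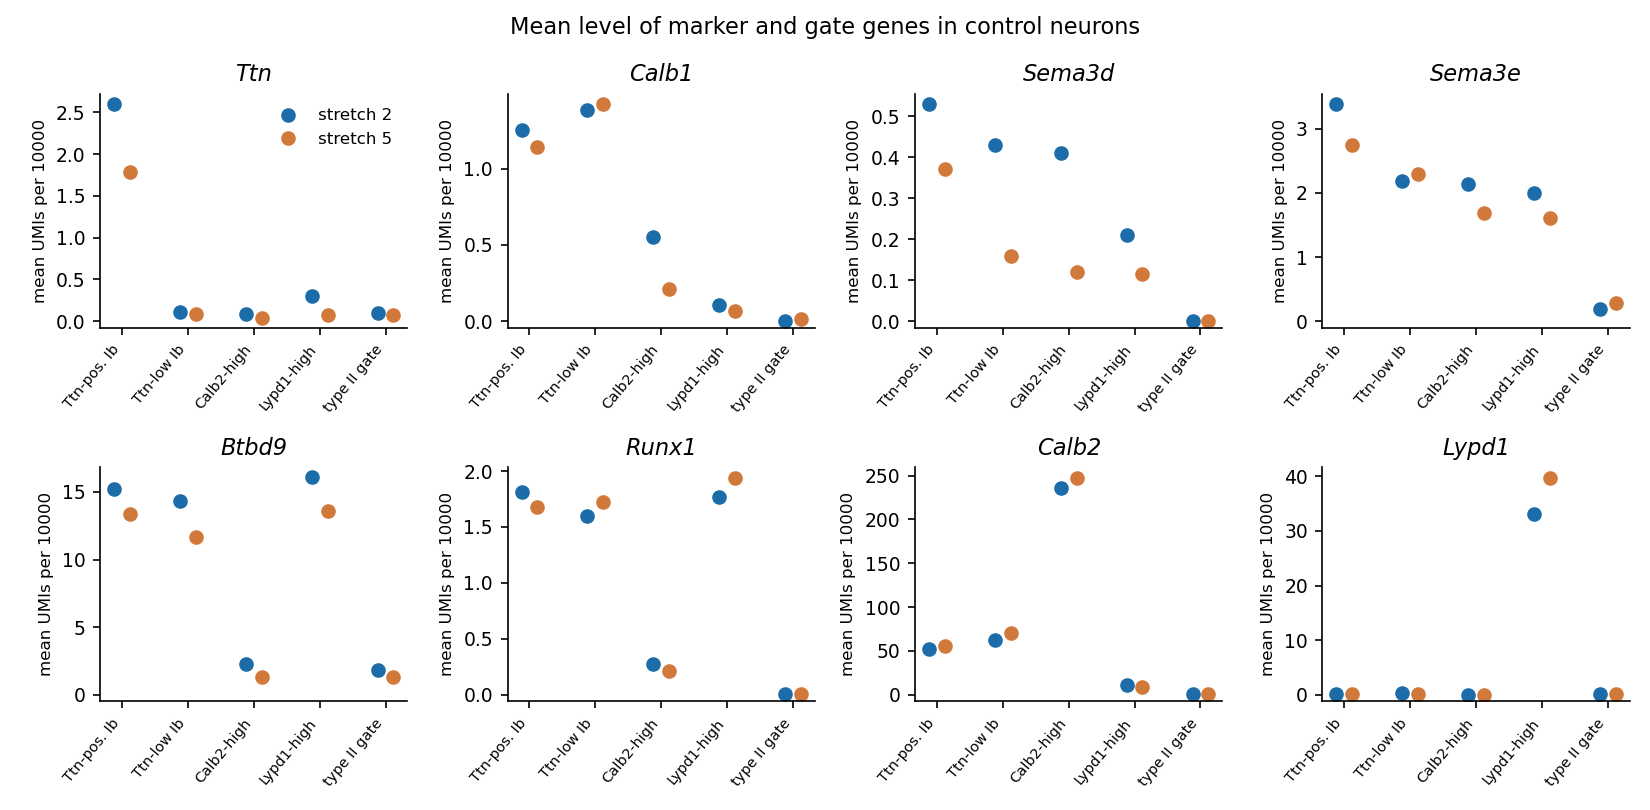
Mean level in UMIs per 10000 of the 5 marker genes, Runx1 and the gate genes Calb2 and Lypd1, in the 5 control gates, 1 point for each column stretch. Calb1 is highest in both groups of the type Ib gate, Sema3e is highest in members, and Btbd9 and Runx1 are low in Calb2-high and type II-gate cells.

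Members were first set against the Ttn-low cells of their own gate. A gene passed the size rule where its mean reached 0.5 in either group and the ratio of means, each plus 0.1, was at least 1.5-fold. Of 3803 genes at that level, 7 were higher in members (0.184%) and 6 lower (0.158%), and the median log2 ratio over all of them was 0.01. Ttn itself, which chose the cells, had a log2 ratio of 3.71. Of these genes only Ttn was past 1.5-fold in both control stretches. The 2 groups drew on the stretches unevenly, since 136 of 211 members and 37 of 184 Ttn-low cells came from stretch 2.

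The genes higher in members included Mir6236, annotated as a microRNA gene (log2 ratio 0.89), Pttg1, which codes for the anaphase inhibitor securin (0.86), the ribosomal protein gene Rps2 (0.83), the synaptic adhesion gene Lrrtm3 (0.65) and Jsrp1 (0.62). Mir6236 was at 0.37 in stretch 2 and 0.26 in stretch 5, past the rule in neither, and Pttg1 at 0.33 and 1.06. Rps2 was lower in members in stretch 2, at -0.15, and higher in stretch 5, at 1.24. Lrrtm3 averaged 0.826 in members and 0.792 in Ttn-low cells of stretch 2, and 0.460 and 0.311 in stretch 5, so its level differed more between stretches than between groups. Jsrp1 codes for a junctional protein of the muscle sarcoplasmic reticulum. Its means were 0.917 in members and 0.690 in Ttn-low cells of stretch 2, and 0.645 and 0.451 in stretch 5, which gave log2 ratios of 0.36 and 0.43.

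The genes lower in members were Myl1, Ptgds, Scg5, B3gat1, Rpl37 and Hddc3. Hddc3 was at 0.29 in stretch 2 and -0.03 in stretch 5, and the ribosomal protein gene Rpl37 at -0.42 and -0.02, so neither pooled call (-0.60 and -0.61) was met within a stretch. Myl1, a myosin light chain gene that was high in the type II gate, had a log2 ratio of -2.37, but -4.27 in stretch 2 and 0.08 in stretch 5. That difference rested on 3 Ttn-low cells of stretch 2 with Myl1 at 3 or more, which averaged 74.1 for Myl1, 19.5 for Rph3a, 12.1 for Hspb1 and 0 for Calb1. Rph3a and Hspb1 were also high in the type II gate. Among members, 1 cell had Myl1 at 3 or more. Scg5, which codes for the granin-like protein 7B2, averaged 3.98 in members and 5.28 in Ttn-low cells of stretch 2, and 10.1 and 11.1 in stretch 5, so the stretches differed more than the groups did. B3gat1, which makes the HNK-1 sugar epitope and is high in Calb2-high neurons, averaged 0.50 in members and 0.606 in Ttn-low cells of stretch 2, and 0.596 and 0.944 in stretch 5. Ptgds, which makes prostaglandin D2, averaged 0.268 and 0.357 in stretch 2 and 0.839 and 1.13 in stretch 5. The summed level of 12 Schwann and satellite glia genes was 22.1 in members and 26.0 in Ttn-low cells, and 53.1% and 67.9% of cells reached 5. Among cells under 5, the log2 ratio of Ptgds was -0.12, under the rule, against -0.91 over all cells, while B3gat1 was at -0.73 and Scg5 at -0.87. Of the cells under 5, 69 of 99 members and 16 of 59 Ttn-low cells came from stretch 2. These ratios therefore do not set the stretches apart. Markers of endothelial cells and erythrocytes were not among the genes of the table, and the 3 hair cell genes in it summed to 0.0166 in members.

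**Figure D3:**
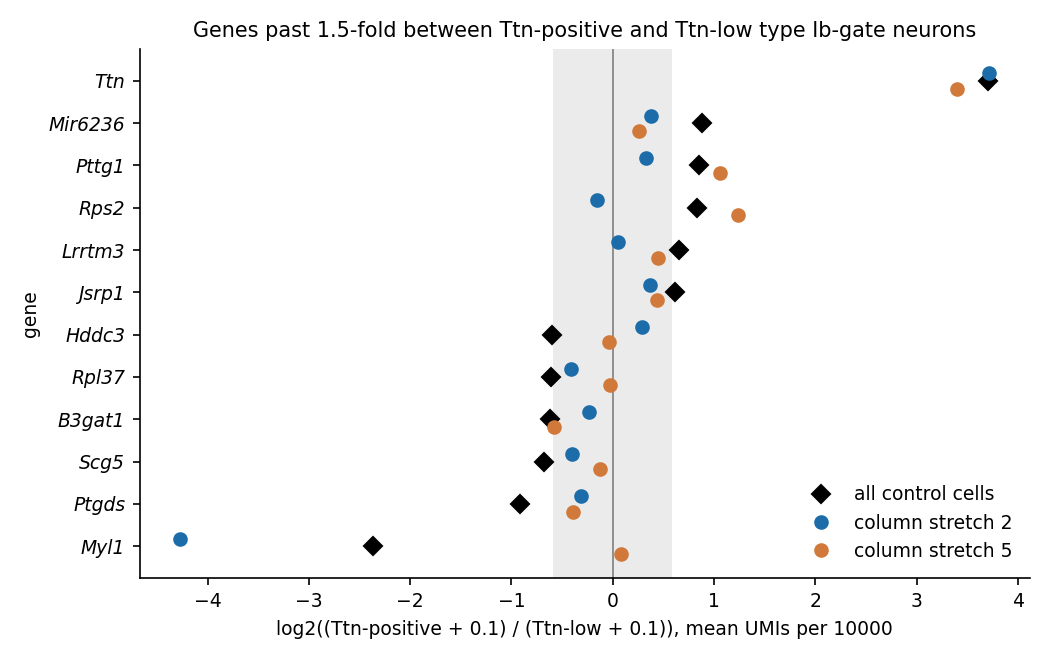
Log2 ratio of mean levels between members and Ttn-low type Ib-gate neurons for the 12 named genes that passed the size rule, over all control cells and within each column stretch; the grey band marks ratios under 1.5-fold. Only Ttn lies outside the band in both stretches, and Myl1, Rps2 and Hddc3 lie on opposite sides of 0 in the 2 stretches.

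Gene lists within the gate gave few calls, as did all genes (0.184% higher and 0.158% lower), so their counts of 0 say nothing about a list itself. Of 37 sarcomere and muscle-associated genes other than Ttn, 6 reached the level, 0 were higher in members and 1 (Myl1) was lower, with a median log2 ratio of -0.09. The Myl1 call rested on the 3 Ttn-low cells given above. Jsrp1, the muscle junction gene that was higher in members, was not on this list. None of 14 potassium channel genes at the level, 7 sodium and HCN channel genes, 5 calcium channel genes, 9 glutamate receptor and scaffold genes or 28 synaptic release genes passed the rule, with medians of 0.08, 0.06, 0.00, 0.00 and 0.02. Of 25 synaptic adhesion genes at the level only Lrrtm3 passed. Among 21 transcription factor genes 0 passed (median -0.01), among 74 oxidative phosphorylation genes 0 passed (median -0.02), and among 77 ribosomal protein genes Rps2 was higher and Rpl37 lower (median -0.08).

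A few genes differed by small steps along the Ttn level. In stretch 5, cells of the gate with Ttn under 0.5 (147 cells), 0.5 to 1 (32), 1 to 2 (23) and 2 or more (20) had Sema3e means of 2.29, 2.68, 2.73 and 2.87. In stretch 2 (37, 30, 39 and 67 cells) the Sema3e means were 2.19, 2.50, 3.41 and 3.78. Sema3e was thus ordered with Ttn in both stretches. Sema3d went from 0.159 to 0.418 in stretch 5 and from 0.430 to 0.629 in stretch 2, with a dip to 0.380 in its second step. Slc17a6, the vesicular glutamate transporter VGLUT2, went from 1.71 to 2.38 in stretch 5, step by step, and in stretch 2 it was 1.82 in the lowest step and 2.58 to 2.97 in the others. Calb2, which the rule keeps under 150 in these cells, was lower at the highest step than at the lowest. It was 70.3, 54.2, 58.4 and 52.7 in stretch 5, not step by step, and 62.5, 61.8, 50.6 and 48.8 in stretch 2. B3gat1 went from 0.944 to 0.414 in stretch 5 with each step lower, while in stretch 2 it had no order, with 0.606, 0.383, 0.678 and 0.449. Calb1 had no order in either stretch, with all 8 means between 1.03 and 1.49. Median depth went from 42755 to 40328.5 UMIs over the steps of stretch 5 and lay between 32769 and 35561.5 in stretch 2.

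**Figure D4:**
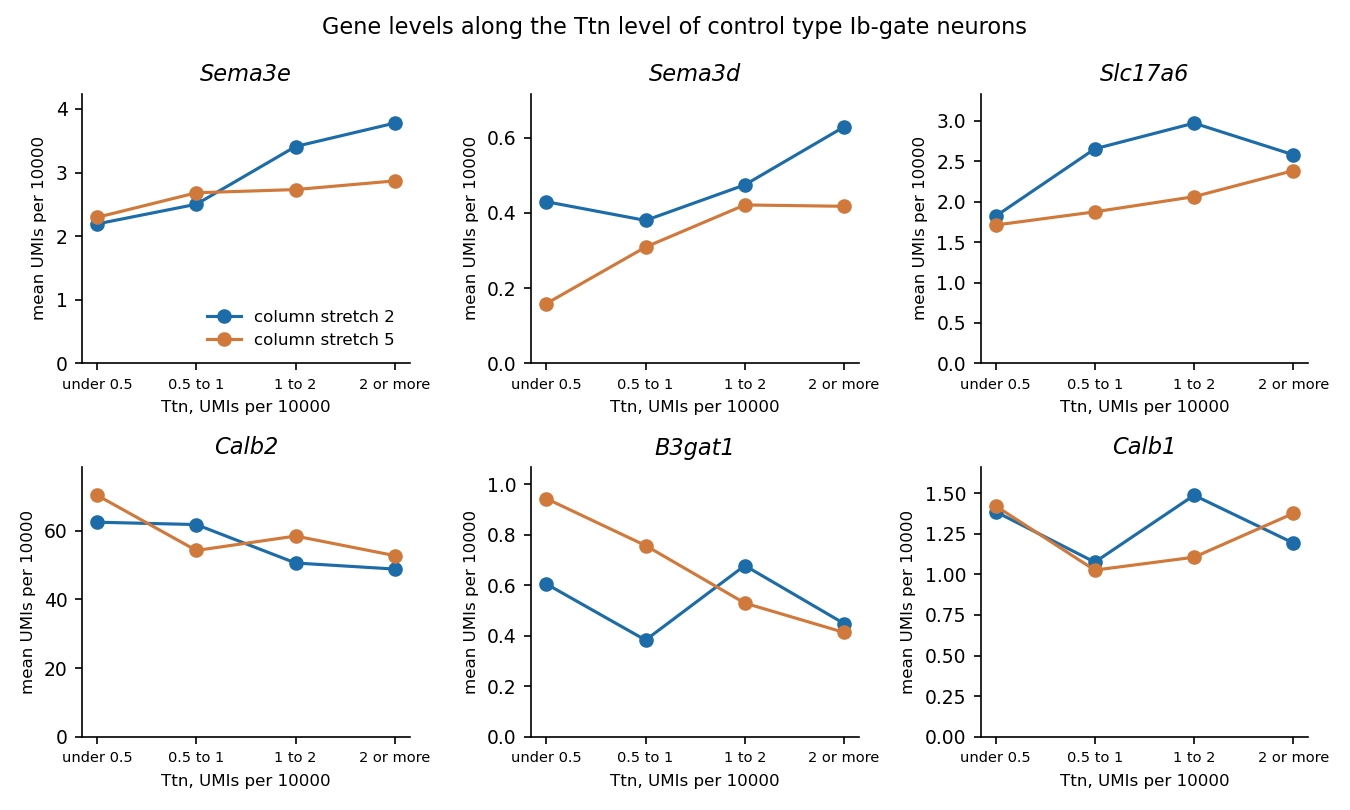
Mean level in UMIs per 10000 of 6 genes in control type Ib-gate neurons, grouped by their Ttn level, 1 line for each column stretch. Sema3e climbs with Ttn in both stretches, Calb2 is lower at high Ttn in both, and Calb1 shows no order.

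The members also differed among themselves along Calb2, which the rule bounds only from above. Member Calb2 ran from 3.73 to 141 with quartiles of 32.0, 45.6 and 70.5. In 4 groups of members parted at these quartiles, from low to high Calb2, Ntng1, which codes for the adhesion protein netrin-G1, averaged 3.01, 2.74, 2.21 and 2.08. Rbfox3, the gene of the neuronal splicing factor NeuN, averaged 1.35, 1.12, 0.961 and 0.652, and Pou4f1 averaged 0.253, 0.211, 0.168 and 0.137. B3gat1 ran the other way, with 0.344, 0.424, 0.537 and 0.831. In both stretches Rbfox3 was higher in the lowest group than in the highest (1.51 and 0.698 in stretch 2, 1.1 and 0.596 in stretch 5), and B3gat1 was lower (0.240 and 0.827, 0.503 and 0.835). Rbfox3 and Pou4f1, which were higher in Lypd1-high neurons than in members, thus lay at the low-Calb2 end, and B3gat1, a gene of Calb2-high neurons, at the other. Calb1 had no order, with 1.05, 1.45, 1.22 and 1.14, and Ttn averaged 2.69, 2.80, 1.95 and 1.82.

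The genes with the widest spread over members, by the variance over the mean of UMIs after thinning, were the ribosomal RNA precursor Rn45s at 456 and the nuclear RNA Malat1 at 124. The median over 3673 genes was 1.07. Meg3 stood at 19.8, Calb2 at 16.5 and Mir6236 at 13.6. For Rn45s and Mir6236 the highest cell weighs heavily in this measure. The level of Rn45s had a median of 51.2 and an upper quartile of 80.2, but reached 2699 in the highest cell. Mir6236 had an upper quartile of 1.95 and reached 65.4. The myelin gene Pmp22, at 9.28, had no UMI in 98 members and reached 53.8 in the highest cell.

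Against all other control neurons together, 23 of 3831 genes were higher in members (0.6%) and 63 lower (1.64%), with a median log2 ratio of 0.03 over all. This is a description, since Ttn, Calb2, Lypd1 and Dupd1 chose the cells. All 23 higher genes kept that direction in both stretches and 15 passed the rule in both. Among the lower genes 62 of 63 kept it, all but Calb2, and 42 passed in both. The calls were made on the pool of these same stretches, which by itself favours a shared direction. Such counts are therefore no replication, and no share over all tested genes stands beside them. Calb1 led after Ttn, at a log2 ratio of 1.35 (1.80 in stretch 2 and 1.04 in stretch 5), followed by Sema3e at 0.86, Pdzd2, a PDZ-domain gene, at 0.84, and Ccdc155 at 0.80. Edil3, which codes for a secreted integrin ligand, stood at 0.73 and averaged 1.25 in members and 0.714 elsewhere. Sipa1l2, Btbd9 and Rasgrp2, an activator of Rap proteins, had log2 ratios of 0.73, 0.72 and 0.71. Besides the gate genes Lypd1 at -5.65, Dupd1 at -4.21 and Calb2 at -0.71, the lower genes were led by Myl1 at -4.76, the small heat shock gene Hspb1 at -3.70, S100a13 at -3.14, tyrosine hydroxylase Th at -2.91 and Apoe at -2.91. Hspb1 averaged 11.3 and 7.94 in the type II gate of stretches 2 and 5 and at most 0.0247 in members, Calb2-high and Lypd1-high cells of either stretch. The comparison group holds the 119 cells of the type II gate, whose median depth was 25326 UMIs.

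Set against the 242 Calb2-high neurons, 97 of 3778 genes were higher in members (2.57%) and 51 lower (1.35%), with a median log2 ratio of 0.05. All 97 kept their direction in both stretches and 63 passed in both, and of the lower genes 50 of 51 kept it and 30 passed in both. Here too the calls came from the pool of these stretches, so the counts are no replication. Ntng1 averaged 2.51 in members and 0.0932 in Calb2-high cells, a rate ratio of 29.6 (24.1 to 36.7) and a log2 ratio of 3.76. Btbd9 stood at 3.18. Slc17a6 averaged 2.48 and 0.279, at a log2 ratio of 2.77, and was 2.71 and 0.445 in stretch 2 and 2.07 and 0.234 in stretch 5. Runx1 stood at 2.53, Rbfox3 at 2.16, the copine genes Cpne6 and Cpne9, whose proteins bind membranes with calcium, at 2.11 and 2.02, and Kcnip2, a partner of Kv4 channels, at 1.85. Rnf123, an E3 ubiquitin ligase gene, stood at 1.82. Several of these genes were not particular to members. Ttn-low cells of the same gate averaged 2.19 for Ntng1, 1.73 for Slc17a6, 1.69 for Runx1 and 12.2 for Btbd9. After thinning, Ntng1 was seen in 89.6% of members and 92.0% of Lypd1-high cells, and Slc17a6 in 82.9% and 94.9%. After the gate gene Calb2 at -2.20, the lower genes were led by Plin2, a coat protein of lipid droplets, at -1.81, B3gat1 at -1.74, the adhesion gene Mdga1 at -1.70, carbonic anhydrase Car2 at -1.65, Tmem132c at -1.62 and the nuclear receptor gene Rxrg at -1.57. Mdga1 averaged 3.75 and 3.79 in members and 16.6 and 11.4 in Calb2-high cells of stretches 2 and 5, so the groups stood apart in both. By gene list, 5 of 19 calcium buffer and sensor genes were higher and 1 (Calb2) lower, and 4 of 25 synaptic adhesion genes were higher (Ntng1, Lrrtm3, Adgrl2 and Tenm3) and 0 lower.

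Set against the 314 Lypd1-high neurons, 46 of 3822 genes were higher in members (1.2%) and 43 lower (1.13%), with a median log2 ratio of 0.01. All 89 kept their direction in both stretches, and 32 and 33 passed in both, again with calls made on the pool of these stretches. Calb1 stood at 2.79, a rate ratio of 13.1 (10.7 to 16.2), and B3gat1 at 1.80. Casz1, a zinc finger transcription factor gene, stood at 1.22, Rasgrp2 at 1.20, the surface glycoprotein gene Cd24a at 1.19, and Neb, the gene of the sarcomere protein nebulin, at 1.16. Neb averaged 1.6 and 1.20 in members, 0.757 and 0.364 in Lypd1-high cells and 1.75 and 1.48 in Calb2-high cells of stretches 2 and 5. It therefore did not follow Ttn across the gates. After the gate gene Lypd1 at -7.09, the lower genes were led by the kinase-anchoring gene Sphkap at -3.10, Ccdc109b, a subunit gene of the mitochondrial calcium uniporter, at -3.04, Grm8 at -2.84, Cd164l2 at -2.42 and Pou4f1 at -2.12. Pou4f1 averaged 0.231 and 0.122 in members and 1.19 and 1.14 in Lypd1-high cells. The vesicle gene Rph3a, the prohormone convertase gene Pcsk2 and the synuclein gene Sncg stood at -1.82, -1.56 and -1.54. The comparisons with Ttn-low, Calb2-high, Lypd1-high and all other control neurons share the same members.

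Fewer CKO cells passed the same gate. They were 53 of 884 (6.0%, 4.52 to 7.77), against 19.7% in control. By stretch the CKO shares were 3.66% in stretch 1, 4.84% in stretch 3 and 14.0% (8.99 to 20.4) in stretch 4. The ranges overlapped through stretch 4, whose label is in doubt, since its 14.0% lay above the 12.8% of control stretch 5. Of the CKO type Ib-gate cells 24.5% were Ttn-positive, with 15.9%, 24.0% and 37.3% in stretches 1, 3 and 4, against 78.6% and 33.8% in the control stretches. Without stretch 4 the CKO share was 4.26% (2.92 to 6.0), 31 of 727 cells. The level of Ttn, which chose the cells, was 2.42, 2.26 and 4.25 in the gated CKO cells of stretches 1, 3 and 4 and 2.60 and 1.79 in the control stretches, so the genotypes overlapped. Runx1 RNA was 2.28 in the 53 CKO cells and 1.76 in members. Which part of the floxed gene is lost is not given in the sources used here, and reads of the 3' assay outside it do not check the genotype.

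Between the 53 CKO cells and the 211 members, 32 of 3853 genes were higher in CKO (0.831%) and 16 lower (0.415%), with a median log2 ratio of -0.02. In 20 of the 32 and 9 of the 16 all 3 CKO stretches lay outside both control stretches. Over all 3853 genes this held for 8.51% toward higher and 13.9% toward lower. The called genes were chosen for a pooled fold between these same cells, which by itself favours stretches that lie apart. Their larger share is therefore no separate support for the calls. The CKO stretches contributed only 13, 18 and 22 cells. Calb1 averaged 2.21, 2.59 and 1.88 in the CKO cells of stretches 1, 3 and 4. Members of stretches 2 and 5 had 1.25 and 1.14, a log2 ratio of 0.81 with no overlap. Ttn-low cells had 3.09, 2.20 and 2.64 in the CKO stretches and 1.39 and 1.42 in control, also with no overlap. In Calb2-high cells Calb1 was 2.25 and 1.77 in CKO stretches 1 and 3 but 0.198 in stretch 4, against 0.554 and 0.209 in control. In Lypd1-high cells it was 2.93 and 1.5 in stretches 1 and 3 but 0.174 in stretch 4, against 0.104 and 0.0683 in control. Btbd9 was 8.93, 12.1 and 13.6 in CKO and 15.2 and 13.3 in control. These overlapped only through stretch 4, whose label is in doubt, and without it the CKO mean was 10.8. For Ttn-low cells the Btbd9 mean was 1.74 (stretch 1), 4.21 (stretch 3) and 14.9 (stretch 4). Control Ttn-low cells had 14.3 (stretch 2) and 11.7 (stretch 5), so stretch 4 again lay apart from the other CKO stretches. Sema3e was 3.87, 2.90 and 4.24 in CKO and 3.39 and 2.75 in control, with overlap too. Ptgds had the highest log2 ratio of the named genes, 1.55, with 1.36, 2.38 and 1.04 in CKO and 0.268 and 0.839 in control. The summed level of the glia genes averaged 20.5 in the CKO cells and 22.1 in members, and 47.2% and 53.1% of cells reached 5. Among cells under 5, the log2 ratio of Ptgds was 0.35 and that of Ceacam10 0.11, both under the rule, while Paxbp1 was at 1.70. Paxbp1, whose protein binds PAX factors, stood at 1.24, with 2.75, 1.61 and 2.57 in CKO and 0.803 and 1.11 in control. Ceacam10, of the CEACAM adhesion family, stood at 1.03 with no overlap between genotypes. Cwc22, a spliceosome gene, Mir6236 and Sh3bgr stood at 1.25, 1.02 and 0.98, and in each the stretches overlapped. Without CKO stretch 4 these 3 were 1.72, 0.04 and 1.54. Among lower genes, Rpl21 and Rpl29 stood at -0.76 each, Myg1 at -0.72 and Cisd3 at -0.68. Rpl29 was 0.388, 3.49 and 1.89 in CKO and 4.65 and 1.6 in control, so it overlapped, while all CKO values of Myg1 were below both control values.

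**Figure D5:**
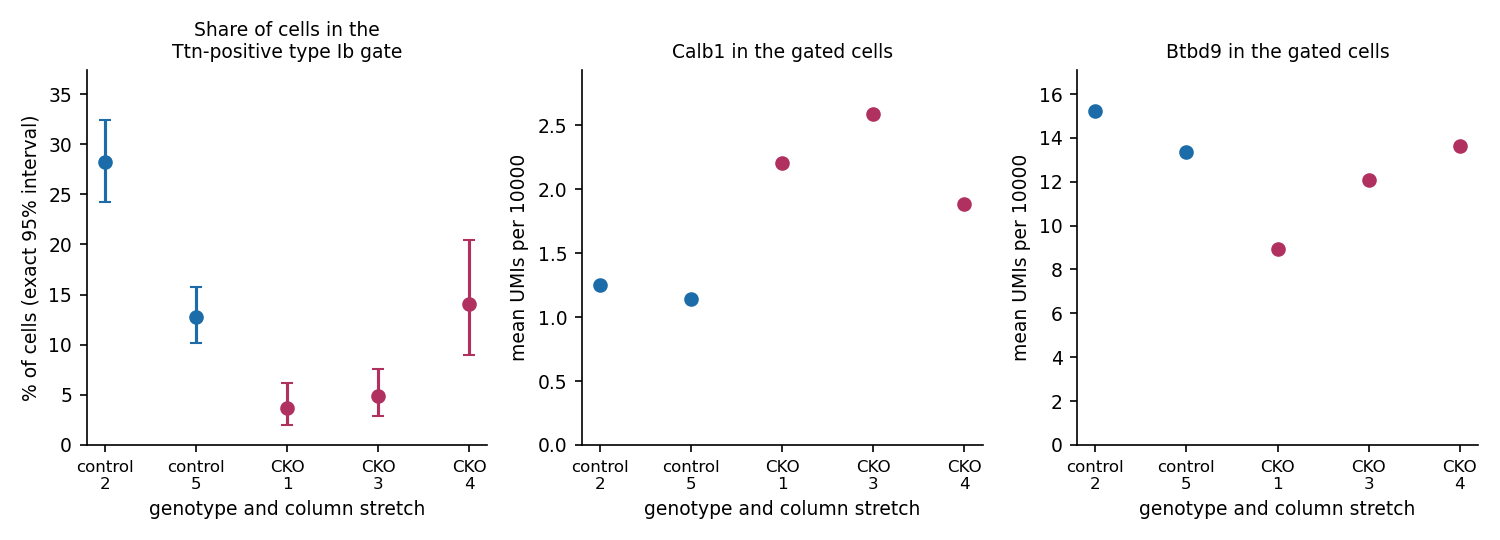
For each column stretch of control (2 and 5, blue) and CKO (1, 3 and 4, red), the percent of cells in the Ttn-positive type Ib gate with its exact 95% interval, and the mean Calb1 and Btbd9 level of the gated cells in UMIs per 10000. The share in CKO stretch 4 lies above that in control stretch 5, and Calb1 is higher in all 3 CKO stretches.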

How the data were processed

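Single-cell libraries of the 10x Genomics 3' assay v3 were analysed from 2 control and 3 CKO samples. Cell Ranger, Seurat and the build mm10 were used, per the submitters' processing notes, which give no version. The authors deposited natural log values for 14715 genes in 1954 cells, and the values show the form ln(1 + 100000 × UMIs / cell total). All 12815235 nonzero entries gave whole UMI counts within 0.01, and these counts were used. A second deposited file gives each cell's genotype as a name only. The 2 files were joined by position because 1 barcode is present in both genotypes. Cell selection by the authors is not given in the sources used here. No doublet caller was run. Cells held 10379 to 100856 UMIs.

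Levels are mean UMIs per 10000, and log2 ratios add 0.1 to each mean. The rule names the 4 gate genes and 5 marker genes, then the genes with the largest ratios that pass the size rule (up to 12 each way within the gate, 8 in the other control comparisons, 6 for CKO), without predicted, sex-linked or mitochondrial genes, and up to 4 examples of each of 36 gene lists. Genes given along Ttn or Calb2, Rnf123 against Calb2-high cells and genes by their spread were chosen after their values were seen. A gene withheld for evaluation is not reported here. Members and lists were chosen with earlier results of these data known. The planned leave-out of each sample could not be run. The fold rule was tested on simulated counts with set folds, counting error only and no difference between stretches. That check therefore says nothing about the uneven mix of stretches. Rate ratios are ratios of summed UMIs over summed depth with exact intervals. Python 3.11.15, numpy 2.4.6, pandas 2.3.3 and scipy 1.17.1 were used, and gene positions are from GENCODE vM21.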

Additional observations from a re-analysis of the deposited data

How the results depend on the processing

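Counts of genes past the size rule are given as higher and lower, in the order within the gate, all other control neurons, Calb2-high, Lypd1-high, and CKO against control. The cause of each shift was not tested, except that a larger pseudocount, a stricter fold or no level filter changes the counts by construction. With a pseudocount of 0.5 they were 2 and 3, 9 and 40, 50 and 27, 16 and 18, and 10 and 3. Without a filter on the level they were 15 and 23, 40 and 240, 229 and 115, 94 and 100, and 87 and 60. At 2-fold they were 1 and 1, 3 and 33, 34 and 19, 11 and 16, and 6 and 0. With summed UMIs over summed depth, the lower count was 37 against all other neurons and 8 for CKO. After thinning, the counts within the gate were 15 and 15 and for CKO 86 and 85. In glia-poor cells they were 15 lower within the gate, 55 and 158 against all other neurons and 94 and 101 for CKO. With Ttn at 1 or more, 37 were lower within the gate, and with at least 3 Ttn UMIs, 18.

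The alternatives by stretch were chosen after seeing the data. With stretches weighted equally, 3 genes were higher within the gate, all 3 among the 7, and 9 were lower, of which 1 was among the 6. Without stretch 2, the counts were 4 and 0 within the gate, and 37 were lower against all other neurons. Without stretch 5, 34 were lower within the gate, 42 and 136 passed against all other neurons, and 61 and 44 for CKO. For CKO, without stretch 1 there were 10 lower, without stretch 3 84 and 76, and without stretch 4 57 and 25. The share of members was 23.9% in glia-poor cells, 13.9% at Ttn of 1 or more, 17.2% at 3 or more Ttn UMIs, 17.2% with the gate applied after thinning (184 cells, 170 of them members), 12.8% without stretch 2 and 28.2% without stretch 5. Of 1092 gene values, 798 moved little. These include 88 at 2-fold and 88 without the level filter, where a ratio cannot change by construction. In all 11 changed sign, 5 of them values past the size rule and 6 not. Past the rule within the gate, Hddc3 was 0.0425 with stretches weighted equally and 0.29 without stretch 5, Myl1 was 0.0842 without stretch 2 and Rps2 -0.15 without stretch 5. In CKO, Rpl29 was 0.35 without stretch 2. No paired analysis was possible because the cells carry no sample or replicate number, and for the same reason no replicate could be left out. Depth limits the Ttn gate, since 28 members had 1 or 2 Ttn UMIs.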
